A study of Homo sapiens with 2 samples.

Results

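The pieces described here are stretches of RNA that the assembler built inside introns without being able to give them a strand. In each deposited transcript file, a piece was taken when its identifier marked it as assembled, it carried no strand, it was at least 300 bases long, it was not on the mitochondrial genome, it lay wholly inside an intron of an annotated transcript and it touched no annotated exon. The control file held 12908 such pieces among 83113 transcripts and the knockdown file held 17251 among 90355. RNA was sequenced from A549 cells, an established human lung adenocarcinoma line, with 1 library for each of 2 short hairpin RNAs. The control hairpin, shLacZ, is aimed at LacZ, which is bacterial and has no human counterpart, and the knockdown hairpin is shPSPC1. Cells of both libraries grew in Dulbecco's modified Eagle's medium with fetal bovine serum, penicillin and streptomycin, and RNA of both was total RNA taken with Trizol. The labels used here do not say whether the knockdown cells were a pool or a clone, when they were harvested, or whether poly(A) selection or a stranded protocol was used. With 1 library a group no test between the groups can be made, and every difference below is one between 2 libraries.

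Introns are transcribed with the rest of a gene and are then cut out by the spliceosome and degraded. RNA from inside an intron can therefore come from a transcript that is not yet spliced, from an intron that was kept, from an unannotated exon or gene, or from a gene copy that sits there. A single-exon piece crosses no splice site, so a library without strand information leaves it strandless. PSPC1 binds RNA, belongs with NONO and SFPQ to 1 protein family, and is a core protein of paraspeckles, bodies in the nucleus whose scaffold is the NEAT1 RNA and which hold back some nuclear RNAs.

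The files hold positions and levels but no bases, and the genome given for comparison is of another build, so the pieces' own sequence was not read. Positions below are the files' own, and their build, not stated in the sources used here, matches GRCh37 in its scaffold names. What can be shown is the sequence of gene copies that lie within the hosts of the most abundant pieces. Processed pseudogenes are copies of a spliced messenger RNA pasted back into the genome. In the RefSeq gene table of GRCh38.p14, MAP3K13 encloses RPL4P4 and TAOK3 encloses RPS2P5, and both hosts held one of the pieces with most fragments. The stretches below are 120 bases of the coding frame of the parent gene and the same stretch of the pseudogene, from GENCODE 29 transcripts. They are shown because a read that covers no differing base fits both, and capitals mark the bases that differ.
RPL4: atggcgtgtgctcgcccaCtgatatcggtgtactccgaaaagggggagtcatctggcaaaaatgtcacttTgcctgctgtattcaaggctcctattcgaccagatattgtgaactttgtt
RPL4P4: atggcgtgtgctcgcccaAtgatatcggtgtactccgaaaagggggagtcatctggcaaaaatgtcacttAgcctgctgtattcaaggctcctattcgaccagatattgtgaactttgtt
RPS2: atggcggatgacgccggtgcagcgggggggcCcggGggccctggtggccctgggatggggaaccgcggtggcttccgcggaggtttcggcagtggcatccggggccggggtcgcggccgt
RPS2P5: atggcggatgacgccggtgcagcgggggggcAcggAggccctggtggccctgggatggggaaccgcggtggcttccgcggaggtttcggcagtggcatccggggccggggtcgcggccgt
Over the 1284 aligned bases RPL4P4 was 98.4% identical to the coding frame of RPL4, a protein of the large ribosomal subunit. RPS2P5 was 98.7% identical to that of RPS2, of the small ribosomal subunit, over 879 bases. Other such copies were RPL7AP6 in SMOC1 at 98.5% and HNRNPA1P7 in GAREM1 at 99.1%, and both matched their parents at each of the first 120 bases of the frame. The handling of reads with several places in the genome is not stated.

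The deposited 95% intervals imply a depth of 56204616 fragments in the control library and 57119368 in the knockdown, and fragments of 161 and 165 bases on average. The level of PSPC1 was 23.9 FPKM (fragments normalised for transcript length and library size) in the control library and 13.3 in the knockdown, 55.6% of control. Among markers of the line, AKR1B10 was at 1072 and 2131 FPKM and KRT18 at 1450 and 1184 FPKM. The epithelial markers EPCAM, at 3.87 and 2.85 FPKM, and CDH1, at 8.21 and 6.58 FPKM, were much lower. Among leukocyte markers CD3E was listed at 0 and PTPRC was at 0.0034 and 0.0033 FPKM, while CD68 was at 15.6 and 8.91 and LYZ at 0.171 and 0.0259.

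Intronic strandless pieces were more numerous, and together longer, in the knockdown library. Their number was 12908 in the control library and 17251 in the knockdown, a ratio of 1.34 (95% counting interval 1.31 to 1.37). Strandless pieces of 300 bases or more that lay outside annotated introns and exons numbered 13749 and 16193, a ratio of 1.18 (1.15 to 1.20). By number of pieces, the intronic excess was thus larger than that outside introns and exons in these 2 libraries. The intervals take each piece as independent, though many pieces can lie in 1 intron, so they may be too narrow. They hold no error between cultures, which 1 library a group cannot give. The lengths of intronic pieces summed to 14.2 Mb in the control library and 19.5 Mb in the knockdown. These sums equal 1.23% and 1.69% of the 1157 Mb of intron that no annotated exon covers. Bases where pieces of 1 library overlap are counted more than once, so less than that is covered. Their median length was 845 and 863 bases and their median level 0.484 and 0.477 FPKM, so the typical piece was alike in both libraries. A piece of median size rested on 18 fragments in either library, and 9 and 16 pieces were listed at 0 FPKM.

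The excess was seen in pieces with few and with many fragments, except the largest. From fewer than 10 fragments to 1000, each class of pieces was 1.27 to 1.47 times as numerous in the knockdown library. Pieces of 1000 fragments or more numbered 67 in the control library and 66 in the knockdown, a ratio of 0.985 (0.690 to 1.41). By length, the ratio ran from 1.27 for pieces of 500 to 700 bases to 1.63 for pieces of 5000 bases or more, which numbered 120 and 196. Fragments are called scaled where they are brought to a depth of 50000000. In sum, the pieces held 690932 scaled fragments in the control library and 808037 in the knockdown, a ratio of 1.17. By the same measure the ratio was 1.12 for pieces outside introns and exons and 1.18 for strandless pieces that touch an annotated exon. The intronic excess by fragments was thus close to that of the other strandless pieces. Pieces of at most 200 fragments held 295170 and 397775 scaled fragments, a ratio of 1.35, against 1.17 for the like pieces outside introns and exons. Pieces of more than 200 fragments held 395762 and 410262, a ratio of 1.04, against 1.10 for the like pieces outside introns and exons. A few pieces thus carry most of the RNA, since the 242 control and 323 knockdown pieces of more than 200 fragments held 57.3% and 50.8% of all fragments in intronic pieces.

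**Figure D1:**
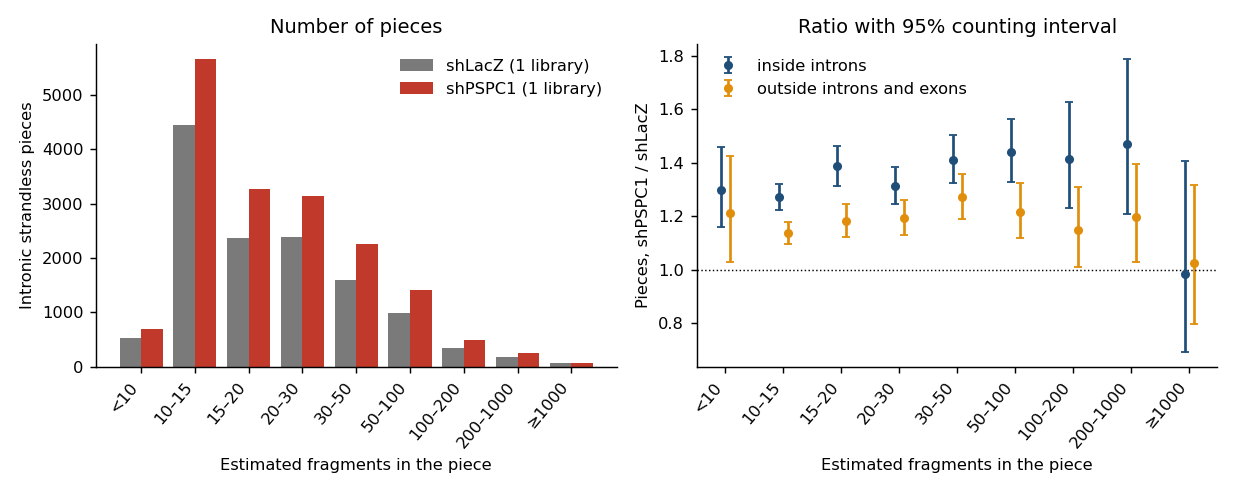
Left, number of intronic strandless pieces in each library (vertical axis) by estimated fragments in the piece (horizontal axis), 1 library a group. Right, ratio of knockdown to control numbers with 95% counting intervals, for pieces inside introns and for those outside introns and exons; inside introns the ratio lay between 1.27 and 1.47 below 1000 fragments and was 0.985 above.

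The excess was spread over the genome. On 21 of 22 autosomes the knockdown library had more intronic pieces, with ratios from 1.06 on chromosome 21 to 1.62 on chromosome 9, and gene-dense chromosome 19 had 585 in the control library and 566 in the knockdown. On chromosome 9 the pieces numbered 619 and 1000, and outside introns and exons 653 and 812.

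Within an intron the pieces lay toward its start, in the same way in both libraries. With the shortest enclosing intron cut into 10 equal parts, the midpoint of a piece was in the first 5 parts for 62.3% of control and 63.0% of knockdown pieces. The last part held 2.77% and 3.08%. The first part held 11.8% and 12.3%. A piece cannot reach into the exon on either side, and whether the room for pieces was equal at both ends was not tested. The lean to the start was larger in introns of 10000 bases or more, where 69.6% and 69.4% of pieces were in the first 5 parts. First introns held 32.6% and 32.98% of the pieces and 26.9% of the intronic bases. In hosts at 1 FPKM or more, first introns had 20.8 pieces per Mb in the control library and 28.2 in the knockdown, and other introns had 15.04 and 19.7.

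Pieces of the knockdown library lay in longer introns. The median length of the shortest enclosing intron was 12317 bases for control and 16433 bases for knockdown pieces. Introns of 10000 bases or more held 55.5% of control pieces (7159) and 61.6% of knockdown pieces (10627). By another measure, stretches of that length between annotated exons, which can be shorter than the enclosing intron, make up 68.7% of the intronic bases. The share within 1000 bases of the downstream exon was 19.7% in the control library and 16.5% in the knockdown, and that within 1000 bases of the upstream exon was 23.3% and 20.1%, so the shift was alike at both ends. In number, the pieces near the downstream exon were 2548 and 2854 and those near the upstream exon 3011 and 3468.

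The density of pieces differed by the level of the host gene and was highest in the middle of the range. The level of a host is that of its annotated transcripts and of the stranded assembled transcripts that share its exons or introns, in FPKM. In genes above 0 and up to 0.1 FPKM there were 0.908 pieces per Mb of intron in the control library and 1.29 in the knockdown. Density was highest in genes between 1 and 10 FPKM, at 22.1 and 29.9 pieces per Mb, and these genes held 67.9% and 67.8% of all pieces. In genes between 10 and 100 FPKM it was 5.27 and 6.19 pieces per Mb, lower than in the less abundant class in both libraries, and in the few genes above 100 FPKM it was 8.95 and 10.6, from 66 and 68 pieces. Of the 4426 control genes with introns between 10 and 100 FPKM, 317 held a piece, against 2199 of 6098 between 1 and 10 FPKM. Genes listed at 0 had 5.29 and 7.70 pieces per Mb, and 1118 and 1600 pieces lay in them. Strandless assembled transcripts are not counted in a level, so a listed 0 does not show that a gene was silent.

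**Figure D2:**
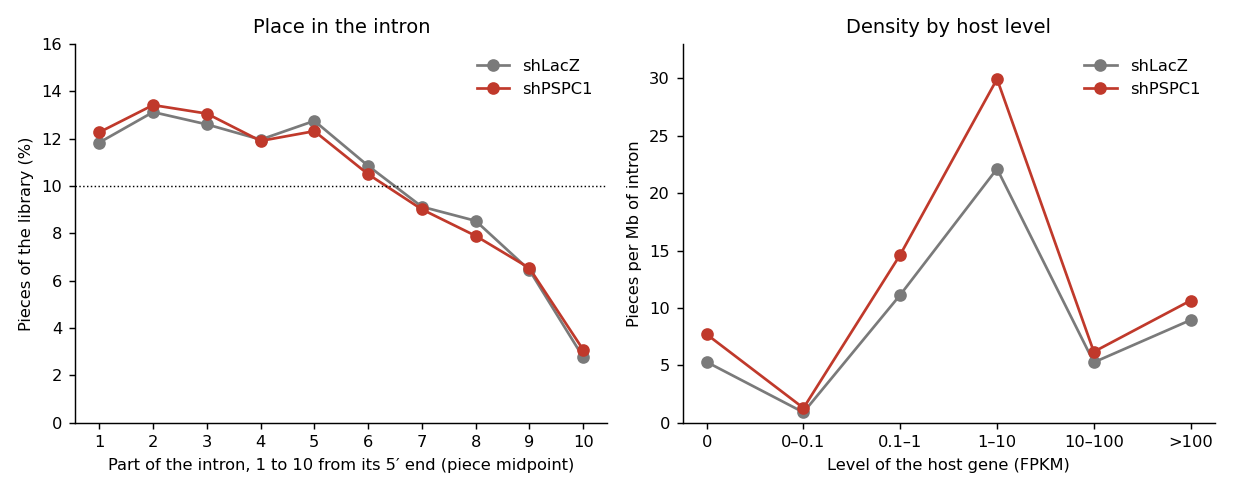
Left, percent of a library's pieces (vertical axis) by part of the shortest enclosing intron, cut into 10 equal parts from its 5′ end (horizontal axis); the dotted line marks an even spread. Right, pieces per Mb of intron (vertical axis) by level of the host gene in FPKM (horizontal axis); both libraries peak between 1 and 10 FPKM, at 22.1 and 29.9 pieces per Mb.

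Most pieces were below their host in level. Where the host was above 0, the FPKM of a piece was in the median 0.227 of the FPKM of the host in the control library and 0.230 in the knockdown. The middle 50% of pieces lay between 0.129 and 0.382 of the host in the control library and between 0.135 and 0.398 in the knockdown. A piece was above its host in 870 of 11790 cases in the control (7.38%) and in 1086 of 15651 in the knockdown library (6.94%). Among pieces of more than 1000 fragments this was the rule, with 55 of 59 control and 51 of 54 knockdown pieces above a host that was itself above 0.

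The pieces with most fragments were thus not at the level of their hosts. The piece in intron 1 of MAP3K13, a kinase gene, had 28836 and 35309 fragments at 404 and 490 FPKM, with MAP3K13 at 1.82 and 1.68. It was 1430 bases long in the control, beside 1436 bases for RPL4P4 in the gene table. RPL4 was at 364 and 417 FPKM, the same order of level as the piece. Whether the reads came from the copy, from RPL4 or from elsewhere cannot be told in these files, and whether the piece lies on RPL4P4 was not tested. Lengths and levels were further apart in GAREM1. There the control piece was 992 bases long at 260 FPKM, beside 1737 bases for HNRNPA1P7 and 91.3 FPKM for HNRNPA1.

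SMOC1, which encodes a secreted matricellular protein, shows how FPKM can mislead for such a piece. Its single piece was 846 bases long with 16618 fragments in the control library and 389 bases long with 17598 fragments in the knockdown. The FPKM of the piece was 432 in the control library and 1373 in the knockdown, although the fragments were nearly equal in number. SMOC1 was at 1.27 and 3.12 FPKM. In PLEKHA7 (a junction protein) the piece was 422 and 664 bases long, with 15599 and 10787 fragments. GAREM1, an adaptor in growth factor signalling, had a piece of 12124 and 12374 fragments, WDR47 one of 10589 and 12122, and CCSER1 one of 14946 and 11269. TAOK3, a kinase, had a piece of 8033 fragments in the control library and 14462 in the knockdown, with RPS2 itself at 300 and 323 FPKM. A transcript on the strand opposite to TAOK3 overlapped that piece in both files, so reads there were split between them. None of these 6 hosts was above 5.39 FPKM in either library.

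Hosts of abundant pieces nearly all enclosed a pseudogene, and they were long genes. A pseudogene lay within the bounds of 64 of 67 control hosts of a piece of more than 1000 fragments (95.5%) and 59 of 64 knockdown hosts (92.2%), by the RefSeq gene table. A pseudogene of a ribosomal protein was within 24 and 23 of them. Among hosts with no piece over 200 fragments, 28.1% and 28.6% enclosed a pseudogene and 5.98% and 6.11% one of a ribosomal protein. Over all 18910 protein-coding genes in the files, the shares were 18.4% and 3.66%. Length differed between these classes of host, with a median of 206134 bases against 49781 in the control. Per Mb of gene in the control, the abundant class had 6.69 pseudogenes of any kind and the other class 4.52, beside 4.20 over all protein-coding genes, so the contrast per length was much smaller than the shares of hosts. For ribosomal protein pseudogenes these densities were 1.39, 0.631 and 0.591 per Mb. Whether a piece lies on the pseudogene was not tested, since the table and the files are of different builds.

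**Figure D3:**
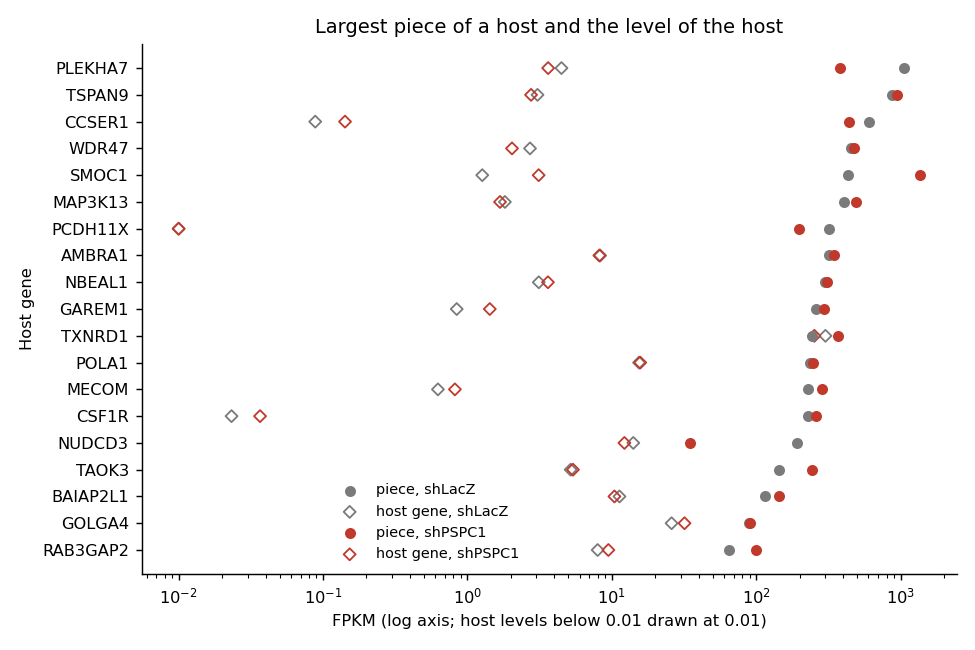
Level in FPKM (horizontal log axis) of the largest piece in a host (filled points) and of the host gene (open diamonds) in each library, for hosts of the 20 pieces with most fragments in either library that have a piece in both, 1 host left out. Pieces lie above their hosts in both libraries except in TXNRD1, the only host above 100 FPKM, where the control piece lies below; the piece in SMOC1 differs in length between the files and so in FPKM.

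Some abundant pieces were found in 1 library because the other file held the same place in another class. In the control file ADGRE3, an adhesion receptor listed at 0 in both libraries, held a strandless piece of 1758 bases with 30197 fragments. In the knockdown file the same place held a transcript of 1753 bases that carried a strand, with 30909 fragments. SEMA6D, a semaphorin, held a piece of 305 bases with 3198 fragments in the knockdown file and a strandless transcript of 274 bases with 2680 fragments in the control. TJP1, of tight junctions, held a 317-base piece with 3000 fragments in the control, where the knockdown file had a strandless transcript of 3092 bases that was not wholly intronic. STAM and TSPAN14 were of the same kind, with longer assembled transcripts at that place in the other file. The one at TSPAN14 was on the strand opposite to the gene. POLB held a piece with 819 fragments in the knockdown file and a 214-base strandless transcript with 636 fragments in the control. At the piece of 1058 fragments in the last intron of AKR1C2, an aldo-keto reductase with near-identical neighbours in its family, the control file had nothing assembled. Whether reads there were split between these genes was not tested.

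At many places 1 library had a piece and the other nothing at all. Of the control pieces 51.1% (50.2 to 51.9) overlapped a piece of the knockdown library, and of the knockdown pieces 38.4% (37.7 to 39.2) overlapped one of the control. Nothing assembled, with or without a strand, lay at 5486 control pieces (42.5%) and at 9839 knockdown pieces (57.0%). The pieces without a partner were the smaller ones, with a median of 14.5 and 15 fragments where nothing was assembled. The share with a partner grew with the fragments of a piece, from 40.5% of control pieces of 10 to 15 fragments to 76.4% of those of 200 or more. In the knockdown library it grew from 23.5% to 75.5%. Absence was not confined to small pieces, since 25 control and 43 knockdown pieces of more than 200 fragments met nothing assembled. The files hold no reads, so a place without a piece is not shown to be without RNA.

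Among pieces of many fragments with nothing assembled in the other file, those of the knockdown library were in KANSL1 (a subunit of a histone acetyltransferase complex, 1073 fragments over 11289 bases), in AKR1C2 and in MATR3, a nuclear matrix RNA-binding protein, with 1035 fragments over 2831 bases. PDE4B had one of 564, RAI1 one of 524 and THSD7A one of 457 fragments. MATR3 itself was at 74.7 and 80.2 FPKM and KANSL1 at 6.22 and 6.83, so the levels of these hosts were close while the piece was in 1 file alone. In the control the largest were in ZNF595 with 546 fragments, PCNX4 with 542, ZBTB20 with 455, the PRH1-PRR4 readthrough gene with 420 and ABR with 415, beside 1 host without a symbol in the tables. PCNX4 was at 9.0 and 11.1 FPKM and ABR at 20.2 and 18.1.

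Pieces present in both libraries had nearly the same level. With an overlap of at least 0.5 of both lengths, 3806 pairs were matched. Their median log2 ratio of FPKM, knockdown over control, was 0.13, with the middle 50% between -0.20 and 0.47. A pair was called when FPKM differed at least 2-fold and the deposited intervals did not overlap. By that rule 69 were higher (1.81%) and 53 lower (1.39%) in the knockdown library. Over all 9314 matched strandless pieces, wherever they lay, 1.7% were higher and 1.3% lower and the median was 0.10, so by FPKM intronic pairs were near the background. By fragments in place of FPKM, 186 were higher (4.89%) and 65 lower (1.71%). The pieces of a pair may differ in length, and the share over all matched strandless pieces was not counted by this measure.

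Many of the called pairs were places where 2 or more overlapping pieces of 1 library shared the reads. A piece overlapped another intronic piece of its own library in 37 of the 69 higher and 33 of the 53 lower pairs, against 11.8% of all pairs. With the fragments of all pieces at the place added up, 28 of these 37 and 31 of these 33 differed under 2-fold. Of the 3356 pairs without such an overlap 32 were higher (0.954%) and 20 lower (0.596%), and their median log2 ratio was 0.13. In UNC5D, a netrin receptor gene, the matched pieces were at 20.2 FPKM in the control library and 5.52 in the knockdown, a log2 ratio of -1.87. The knockdown file had a second piece there, and all pieces at the place held 2289 fragments in the control library and 2264 in the knockdown. In ANKH, a pyrophosphate transporter, the pair had a log2 ratio of -2.19 and the place held 384 and 366 fragments. In LINC03009 the pair had a log2 ratio of 2.55, the largest upward among the named pairs, and the place held 1339 and 1388 fragments. The named pairs in SH3YL1, ADGRF3, GMDS-DT, ANKRD55, PCMTD1, GPHN and MBD5 also shared their place with another piece, and differed under 2-fold by the sum. Of 4 pairs named in GLIS3, a zinc finger transcription factor, with log2 ratios from 1.8 to 2.28, only 1 differed over 2-fold by the sum, with 65 and 155 fragments. SBF2 alone among the named pairs had a single piece in either file, with 1409 and 984 fragments at 23.6 and 7.81 FPKM, over 1223 and 2371 bases.

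The difference between the libraries was divided between introns that had pieces in both and introns that had them in 1. Pieces lay in 6260 introns of the control and 7295 of the knockdown library, and 3658 introns were in both, 58.4% and 50.1% of each. The shared introns held 9363 control and 11448 knockdown pieces, a ratio of 1.22. Introns with pieces in 1 library alone held 3545 and 5803, a ratio of 1.64. Of the 4343 pieces by which the knockdown library exceeded the control, 2258 (52.0%) were thus in introns without a piece in the other library. Among 482 introns with 10 or more pieces over both libraries, 172 had 50 to 60% of them in the knockdown library, and 45 had 90% or more there, against 7 with under 10%.

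**Figure D4:**
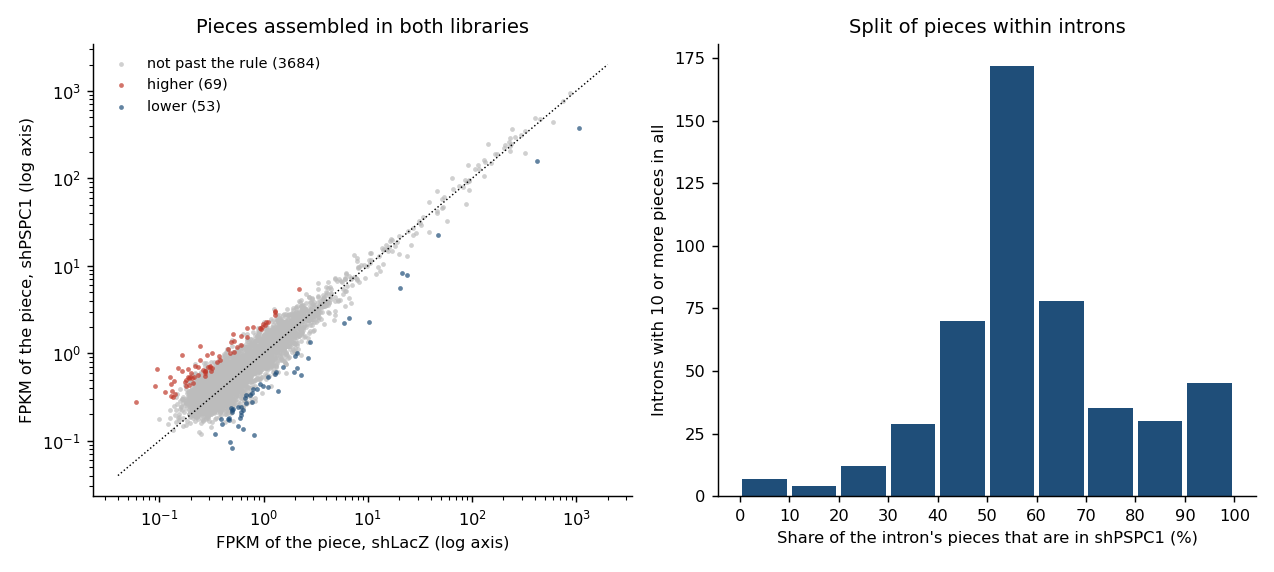
Left, FPKM of 3806 matched intronic pieces in the control (horizontal log axis) and the knockdown library (vertical log axis); 69 were called higher and 53 lower. Right, number of introns with 10 or more pieces over both libraries (vertical axis) by the percent of those pieces that are in the knockdown library (horizontal axis); 172 introns lie between 50 and 60% and 45 at 90% or above.

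Some genes had many intronic pieces in 1 library and none in the other, at a nearly equal level of the gene. Pieces were hosted by 3684 genes in the control library and 4036 in the knockdown, 2753 of them in both. In 30 genes the knockdown library had 10 or more pieces and the control none, 565 pieces in all, and in 14 genes the control had 10 or more (200 pieces) and the knockdown library none. Their pieces lay in 2 to 14 introns of the gene, and 34 of these 44 genes had them in 3 introns or more. The level of the host differed under 1.5-fold, on the scale of FPKM plus 1, in 27 of the 30 and in all 14. In 25 of the 30 and 10 of the 14, other assembled transcripts in those introns in the empty library covered under 0.1 of the bases of the pieces. In 205 genes both libraries had 10 or more pieces, with a median ratio of pieces of 1.19.

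ADK (adenosine kinase) had 58 pieces in 10 introns in the control, with 1003 fragments over 76185 bases. In the knockdown library it had 1 piece of 20 fragments. ADK was at 20.9 FPKM in the control library and 16.8 in the knockdown, and no other assembled transcript in those introns covered more than 24 bases in either file. The other direction was seen in PDE10A, a cyclic nucleotide phosphodiesterase, with no piece in the control library and 64 pieces in 13 introns, 1682 fragments, in the knockdown, at a level of 2.21 and 2.11 FPKM. In both genes the difference ran through nearly all introns that held a piece, not through 1 intron.

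Other genes with pieces in the knockdown library alone were CSTPP1 (41 pieces, 805 fragments), LCOR, a corepressor of nuclear receptors (38 pieces, 809 fragments), FOXP1, a forkhead transcription factor (32 pieces), MED13L, of the Mediator complex (22 pieces, 1448 fragments), NEK6 (21) and RRAS2 (20). CSTPP1 was at 5.87 FPKM in the control library and 8.33 in the knockdown, while FOXP1 was at 7.11 and 3.59, LCOR at 4.22 and 3.87, MED13L at 9.53 and 8.36, NEK6 at 8.41 and 6.56 and RRAS2 at 12.8 and 9.29. Gene levels thus went both ways, and over the 30 genes the median log2 ratio of the level was -0.12, from -1.07 to 0.55. Genes with pieces in the control alone included PDHX, of the pyruvate dehydrogenase complex (21 pieces in 9 introns, 759 fragments), ADAM17, the sheddase of TNF (16 pieces in 7 introns), VPS53 (15 pieces in 10 introns) and IMMP2L, a mitochondrial inner membrane peptidase (15 pieces, 968 fragments). PDHX was at 13.6 and 18.4 FPKM, ADAM17 at 20.1 and 23.9 and IMMP2L at 4.98 and 6.93, each higher in the library without pieces, and VPS53 at 3.59 and 3.22. Over the 14 genes the median log2 ratio of the level was 0.21, from -0.22 to 0.57.

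In NFE2L2 and TRA2A other assembled transcripts stood where the pieces were missing. NFE2L2, which encodes the oxidative stress factor NRF2, had 14 pieces in the control library and none in the knockdown, where a strandless transcript of 36838 bases that ran over annotated exons took their place. TRA2A, a splicing regulator, had 6 pieces with 673 fragments in the control. The knockdown file had a transcript of 12494 exon bases there, on the strand opposite to TRA2A. SMAD3, a mediator of TGF-beta signalling, had 15 pieces with 1539 fragments in the knockdown library, and the control file had 24917 bases of other assembled transcripts in those introns, but none at the place of the largest piece, of 284 fragments.

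Over all hosts, a rule of size asked for at least 30 scaled fragments in the higher library and at least a 2-fold difference, with 3 fragments as the floor. Of 3155 hosts with 30 or more in either library, 1164 were higher in the knockdown library (36.9%) and 639 lower (20.3%). The ratio of 518 of the higher and 349 of the lower hosts is a bound, since the other library was under the floor. The median log2 ratio of intronic fragments over the 3155 hosts was 0.41. The median log2 ratio of the level of the host gene, with 1 added to each FPKM, was 0.00 over all of them, 0.00 over the higher and 0.02 over the lower hosts. The level was at least 2-fold up in 18 of the 1164 higher hosts and at least 2-fold down in 13 of the 639 lower ones. These are 1.55% and 2.03%, near the 1.87% and 1.77% over all 3155 hosts. The level was above that of the control in 45.8% of the higher hosts and in 48.0% of all.

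**Figure D5:**
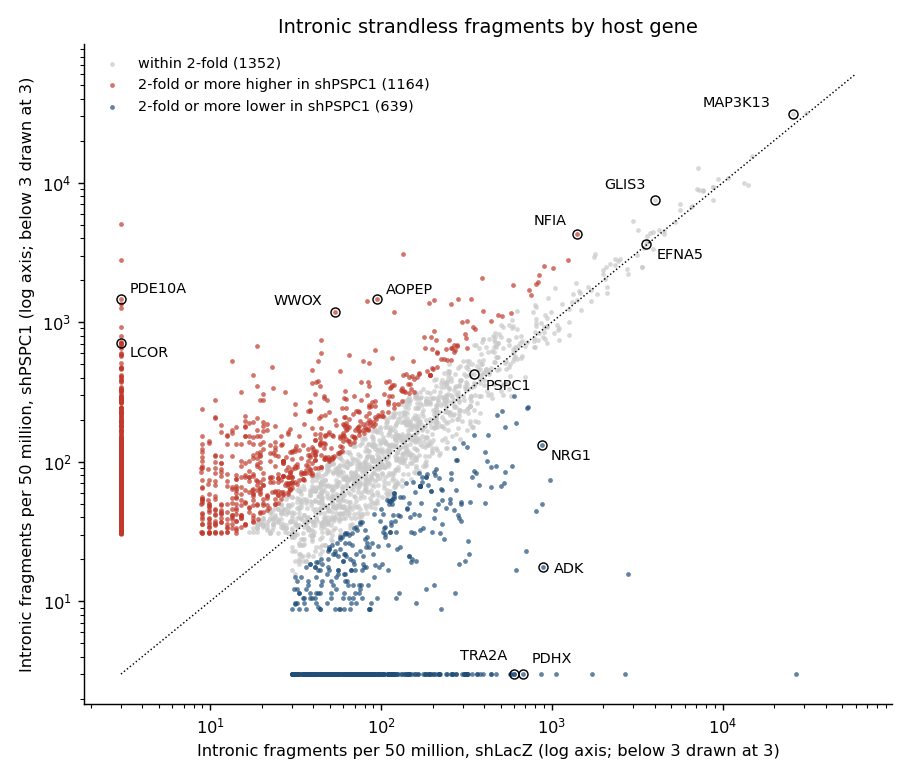
Scaled intronic fragments of each host in the control (horizontal log axis) and the knockdown library (vertical log axis), values under 3 drawn at 3, for the 3155 hosts with 30 or more in either library. Red points (1164) and blue points (639) differ at least 2-fold; points on the lower and left edges are hosts without a piece in 1 library.

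The genes with most pieces were long genes with pieces in both libraries. EFNA5, which encodes an ephrin ligand, had 78 control and 94 knockdown pieces in 1 intron, with 4000 and 4140 fragments, and was at 4.12 and 4.14 FPKM. GLIS3 had 74 and 95 pieces in 7 introns, with 4481 and 8548 fragments, and ZBTB20, a transcriptional repressor, had 56 and 81, with 3562 and 5247. PCDH9, a protocadherin, had 50 and 51 pieces, with 3147 and 2545 fragments, and TTC28 had 50 and 71, with 894 and 1519. None of these 5 passed the rule of size. The PRH1-PRR4 gene held 46 pieces in the control and, with 113, the most of any host in the knockdown library.

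NFIA, a transcription factor, was past the rule while its own level went the other way. It had 54 control and 80 knockdown pieces over 43300 and 184181 bases, and 1580 and 4911 fragments. NFIA was at 3.01 FPKM in the control library and 1.27 in the knockdown. TCF7L2, which acts with beta-catenin in WNT signalling, had 49 and 71 pieces with 928 and 2224 fragments, and was at 1.10 and 0.512 FPKM. SSH2, a cofilin phosphatase, had 42 and 93 pieces with 665 and 2094 fragments at 2.33 and 1.97 FPKM. AOPEP, an aminopeptidase, had 6 and 73 pieces with 106 and 1670 fragments. AOPEP was at 10.5 FPKM in the control and at a listed 0 in the knockdown file, which does not show a silent gene. Other assembled transcripts covered 60745 intronic bases in the control file and 66933 in the knockdown.

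WWOX, a tumour suppressor gene across a common fragile site, had 3 pieces and 60 fragments in the control library and 90 pieces and 1353 fragments in the knockdown. Of these, 1 control and 87 knockdown pieces were in its intron 8 of 778855 bases. WWOX was at 4.54 FPKM in the control library and 5.72 in the knockdown. Of the 20 long fragile-site genes listed, 18 were in the files and 10 reached 30 scaled fragments, of which 3 were higher and 2 lower, with a median log2 ratio of 0.09, beside 36.9% higher, 20.3% lower and 0.41 over all hosts. PDE4D was a further higher gene, with 49.0 and 153 fragments, and THSD7A had none in the control library and 794 in the knockdown. The lower ones were IMMP2L and GPC6, a glypican, which had 25 and 5 pieces with 586 and 80.0 fragments. DMD and NAALADL2 had 1 piece in each library, with 449 and 440 and with 236 and 282 fragments, and PTPRG had 2619 and 3223.

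PSPC1 itself had intronic pieces in both libraries. It held 12 control and 14 knockdown pieces in 1 intron, with 395 and 487 fragments, a log2 ratio of 0.28 after scaling, and so did not share the lower level of its own transcript. Other assembled transcripts covered 237 bases of its introns in the control library and 16290 in the knockdown. NONO, SFPQ, NEAT1 and MALAT1 hosted no piece in either library. Of 35 paraspeckle proteins 12 reached 30 scaled fragments, of which 3 were higher and 1 was lower, beside 36.9% higher and 20.3% lower over all hosts. Their median log2 ratio was 0.54, beside 0.41 over all hosts, and 12 genes are too few to set apart from these. TAF15, an RNA-binding protein of the FET family, had 442 fragments in the control library and 1374 in the knockdown at a level of 17.2 and 15.4 FPKM. ZNF335 and RBM12 had none in the control library and 148 and 109 in the knockdown, while RBMX had 61.0 in the control library and none in the knockdown. FIGN, with 420 and 597 fragments, did not pass the rule.

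SR proteins and CLK kinases regulate splicing and are known for introns that are kept in the nucleus. Of the 28 listed, 27 were in the files and 9 reached 30 scaled fragments, with 4 higher and 3 lower and a median log2 ratio of 0.63, too few to set apart from the 36.9% higher, 20.3% lower and 0.41 over all hosts. RBM39, with none and 357 fragments, CLK4, with none and 246, TRA2B, with none and 145, and CLK3, with none and 43.0, were the higher ones. TRA2A, OGT, with 124 and none, and SON, with 89.0 and none, were the lower ones. OGT is on the list but is neither an SR protein nor a CLK kinase. SRSF4, with 433 and 680 fragments, had pieces in both libraries and did not pass. All 7 genes that passed had pieces in 1 library alone, so the ratio of each is a bound.

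Genes of signalling and stress lists differed in how often they hosted pieces. Of all 21779 genes with introns, 16.4% were hosts in the control library and 18.1% in the knockdown, with 1 host counted per piece. Among genes between 1 and 10 FPKM these shares were 36.1% and 38.6%, and the lists were not matched for level. Of the 25 TGF-beta ligands, receptors and SMADs 9 and 10 were hosts (36% and 40%), with 22 and 51 pieces, of the 33 interferon-stimulated genes in the files 2 and 5, and of the 28 NF-kB and inflammatory genes 3 and 2. Called counts below stand beside 36.9% higher and 20.3% lower over all hosts, and with 2 to 8 genes a list none can be set apart from that. Of 25 TGF-beta ligands, receptors and SMADs 8 reached the minimum, with 4 higher and 2 lower and a median log2 ratio of 1.08. Besides SMAD3 the higher ones were the receptors BMPR2 (none and 202 fragments), ACVR2B (46.0 and 181) and ACVR2A (11 and 45), and the lower ones were TGFB1, a ligand (164 and none), and SMAD5 (89.0 and none). SMAD7, the inhibitory SMAD, had 219 and 204 fragments while its level was 10.5 and 5.57 FPKM. Among 40 matrix and TGF-beta target genes, 4 reached the minimum, and HMGA2, a chromatin protein, had no fragment in the control library and 147 in the knockdown, while its level was 5.89 and 2.38 FPKM. LAMA3, a laminin chain, was the other higher one, with 24.0 and 63.0, and COL4A1 had 86.0 and 88.8. In the NF-kB and inflammatory list only NFKBIZ and BIRC3 reached the minimum, and both were lower. NFKBIZ, an inducible nuclear IkB protein, had 309 and 72.0 intronic fragments at a level of 11.5 and 2.43 FPKM, so that here the pieces and the gene were both lower. BIRC3, an inhibitor of apoptosis, had 50 and none.

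Of 34 interferon-stimulated genes 4 reached the minimum, among them IFIT3 with none and 38.0 fragments and SP100 with 137 and 179. NRF2 targets gave 5 genes at the minimum of 37, with 3 higher and none lower. TXNRD1, which held an abundant piece and encloses RPL18AP3, had 7898 and 10248 fragments, and SLC3A2 had none and 317 and GCLM none and 96.0. AKR1C2 was the third higher gene. In the EGF family list NRG1, a ligand, had 20 pieces with 982 fragments in the control library and 8 with 150 in the knockdown. Its level was listed at 0 in the control library, which does not show a silent gene, and was 20.5 FPKM in the knockdown. BTC had 39 and 22 fragments and NRG4 17 and 23. Of 37 DNA replication genes 3 reached the minimum and none passed the rule by fragments, POLA1 with 7326 and 7693, RFC3 with 543 and 804 and POLE with 125 and 184. None of 14 non-coding hosts of small nucleolar RNAs had a piece.

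The longest pieces were at a low level. In the control these were 2 overlapping pieces in intron 2 of LINC03009, of 24017 and 22600 bases at 0.163 and 0.888 FPKM, and a piece of 21824 bases in intron 2 of ZBTB20 at 0.982 FPKM (0.925 to 1.04). In the knockdown library they were a piece of 33164 bases in intron 1 of ROR1, a receptor of the WNT family of ligands, at 0.503 FPKM (0.471 to 0.536) and 2 pieces in GLIS3, of 24616 and 21053 bases at 0.712 and 0.685 FPKM. Each of these 6 overlapped a piece of the other library.

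A few pieces lay next to genes of small RNAs. By the rule a piece touches no annotated exon, and these genes are annotated, so a piece beside one stops short of it. MicroRNAs are excised as hairpins from a longer primary transcript, and their mature strand pairs with targets through the seed, bases 2 to 8. The annotation held 1889 small RNA genes, 1031 of them inside an intron. Of the 1889, 20 had a piece within 500 bases in the control library, 24 in the knockdown and 7 in both. The 5 microRNA genes among these 7 were MIR3175 in CHD2, MIR99A in MIR99AHG, MIR181B2 in MIR181A2HG, MIR587 in LINC02532 and MIR4505 in MIDEAS. The mature strands of the first 3 are given from RefSeq (GRCh38.p14) to identify them, with the seed in capitals.
miR-3175: cGGGGAGAgaacgcagugacgu
miR-99a-5p: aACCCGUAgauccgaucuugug
miR-181b-5p: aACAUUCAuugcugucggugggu
The 3 seeds differ. In CHD2, which encodes a chromatin remodeller, the control had a piece of 138 fragments that ended 50 bases before MIR3175 and one of 88.0 fragments that began 53 bases after it. The knockdown library had 1 piece of 177 fragments that ended 39 bases before it. At MIR99A, pieces of 18 fragments in the control library and 12 in the knockdown lay 6 and 492 bases away, and at MIR181B2 pieces of 26 and 38 fragments began 332 and 333 bases after the gene's end. The other two were SNORA2A in KANSL2 and SNORD126 in CCNB1IP1, with pieces of 21.9 and 29 fragments in the control.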

How the data were processed

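The authors made 1 transcript file for each library, with CASAVA 1.8.2, TopHat2 2.0.7 and Cufflinks 2.1.1 named in the submitters' processing notes. The deposited FPKM and 95% bounds are the authors' own values, per the attribute names in each line, and the score column was not used. Genome build, annotation and assembler options are not stated there. The members, host lists and rules were chosen with earlier results of these data known, and the lists support nothing by themselves.

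Fragments were estimated as FPKM times effective length times depth, with depth and fragment length fitted to the fragment numbers that the deposited bounds imply, which were whole within 0.02 for 98.1% and 98.2% of members alone at their locus. Accessions were named through RefSeq and GENCODE tables, with 1525 and 1543 left unnamed, and 182 hosts carry no symbol. Genes named are those with most fragments, most pieces, greatest length or largest ratios, the 3 list members with most fragments and fixed genes, plus list members past the rule and genes with pieces in 1 library alone, chosen after their values were seen. Intervals are exact or as deposited and cover counting error only, and those on numbers of pieces take each piece as independent. The procedure recovered known pieces, hosts and fragments in simulated files. Python 3.11.15, pandas 2.3.3 and scipy 1.17.1 were used. Some genes are not reported here.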

Additional observations from a re-analysis of the deposited data

How the results depend on the processing

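The ratio of pieces, knockdown over control, kept its direction under all 10 alternatives run, and 6 of these left it within its counting interval. It was 1.39 for pieces of at least 1000 bases, 1.37 for those of at least 20 fragments and 1.27 when pieces up to 500 bases apart were joined. Within introns that held a piece in both libraries, an alternative chosen after seeing the data, it was 1.22. The ratio of bases was 1.41 for pieces of at least 1000 bases and 1.41 for at least 20 fragments. The ratio of fragments was 1.17 by FPKM times length, 1.16 at a minimum of 200 or of 500 bases, 1.25 at 1000 bases and 1.25 without the 10 largest pieces of each library. With pieces of at most 200 fragments alone, also chosen after seeing the data, it was 1.35. Genes with at least 3 pieces were 1.18 times as many, against 1.10 for all hosts. The share of pieces with a partner was 29.8% and 22.4% at a reciprocal overlap of 0.5, and 57.5% and 43.0% when any assembled transcript counted. Matched pieces called higher numbered 186 by fragments, 19 of 1382 pairs at an overlap of 0.8 and 136 at 1.5-fold, beside 69, and those called lower numbered 17 at an overlap of 0.8, beside 53. Without pairs in which a piece overlapped another of its own library, chosen after seeing the data, they numbered 32 and 20. Hosts called lower numbered 410 at a minimum of 60 fragments, where fewer hosts were tested. The cause of these shifts was not tested beyond the fewer pairs or hosts tested. No paired analysis was possible because each group holds 1 library. Only 529 control and 687 knockdown pieces rested on fewer than 10 fragments, so RNA below that depth is mostly not seen as a piece, and a missing small piece does not show missing RNA.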
